A study of Mus musculus with 5 samples.

Results

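The 45 genes described here build the machinery that copies DNA and the nucleotides it uses, and they were taken by symbol from a table of 24527 genes measured by bulk RNA-seq of mouse prostate tumors. All 45 were in the table and all 45 passed the expression filter, which kept the 14612 genes whose CPM (counts scaled to library size) exceeded 1 in at least 2 samples. The tumors came from TripleTg mice, which combine the alleles hHGFtg, H11 hMET/+ and Ctnnb1 L(Ex3)/+ with PB Cre4, on a mixed C57BL/6 and C3H SCID background. The human HGF transgene is active throughout the body, whereas the human MET transgene and the stabilized β-catenin are switched on in prostate epithelium by Cre recombinase driven from the probasin promoter, itself androgen-responsive. Tumor tissue of 3 mice castrated at 4 months of age was compared with that of 2 intact mice, and all were analyzed at 8 months. Castrated and intact mice thus carried the same 4 alleles, and androgen supply was the labelled difference. The libraries held 28015507, 18951782 and 20492061 counts in castrated replicates 1, 2 and 3, against 21560355 and 22853501 counts for the intact pair.

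DNA replication begins when the origin recognition complex, with CDC6 and CDT1, loads the MCM2 to MCM7 helicase onto origins during G1, a step that geminin restrains after S phase starts. CDC45, GINS and MCM10 then turn the loaded helicase into an active one, polymerases α, δ and ε copy the unwound strands around the PCNA clamp, and ribonucleotide reductase, thymidylate synthase and thymidine kinase supply the building blocks. Many of these genes are transcribed under E2F factors as cells enter S phase, so their transcripts are widely used to follow proliferation in tumors, including prostate tumors that grow or stall after androgen is withdrawn.

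Before the comparison, the labelled tissue was checked against marker genes. Epithelial markers were abundant in every sample, with a summed CPM over 12 genes of 4590, 4229 and 5159 in castrated replicates 1, 2 and 3 and of 6580 and 4762 in the intact samples. Krt8 was the most abundant in each castrated sample, Epcam in intact replicate 1 and Krt18 in intact replicate 2. Genes of the secretory prostate were close to 0 in every castrated sample and in intact replicate 1, and intact replicate 2 stood apart with a summed CPM of 2162 over the 8 genes, against 23.0, 6.76 and 6.28 for castrated replicates 1, 2 and 3 and 5.20 for intact replicate 1. Tgm4, a prostate transglutaminase, made up 1347 of that sum, and Msmb was at 0 in all 5 samples. The counts of negative log2 fold changes and the medians are therefore also given without intact replicate 2. This covers the 45 genes and the other lists of replication and cell cycle genes.

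As a group, transcripts of the replication and nucleotide synthesis genes were lower in tumors of castrated mice. Of the 45 genes, 40 had a negative log2 fold change (castrated over intact; 35 when scaled to epithelial markers), against 52.1% of all genes tested, and their median log2 fold change was -0.69, against -0.03 for all genes tested. In 28 of the 45, every castrated sample lay below both intact samples in CPM, and in 0 did every castrated sample lie above both. Over all genes tested the corresponding shares were 16.1% and 17%. Per gene length in TPM, 21 of the 45 lay below and 1 above, against 10.7% and 20.5% of all genes, and scaled to epithelial markers 15 lay below and 1 above, against 3.94% and 24.6%. The 45 genes together took 0.0976%, 0.0884% and 0.101% of the counts in the castrated samples, and 0.119% and 0.127% in the intact samples. In bulk tissue, fewer cells of a type and less RNA per cell cannot be told apart.

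No single gene passed the adjusted threshold. With 3 mice against 2, edgeR's quasi-likelihood test, adjusted over all genes by Benjamini-Hochberg, called 0 of 14612 genes (0%) at an adjusted p under 0.05 with a log2 fold change beyond 1 in either direction, and the adjusted p of the 45 genes ran from 0.289 to 0.969. At an unadjusted p under 0.05, 19 of the 45 differed, all lower in castrated tumors. Of the 14612 genes tested, 918 were lower and 1277 higher at this cut. Of the 19, 13 were also lower by more than 1 on the log2 scale, a combination met by 3.26% of all genes tested. In the other direction 0 of the 45 met it, against 7.66% of all genes tested. The 13 were Orc1, Orc6, Gmnn, Mcm10, Cdc45, Pole, Pole2, Prim1, Tk1, Tyms, Dtl, Uhrf1 and Chaf1a. With DESeq2, 9 of the 45 passed the adjusted threshold, and with edgeR's likelihood ratio test 4 did, among 989 and 369 genes called over the whole table. Without castrated replicate 1 the count of 13 became 8, against 3.72% of all genes tested. Without castrated replicate 2 it became 7, against 1.72%. Without intact replicate 2, the sample with secretory transcripts, 39 of the 45 were lower and the median was -0.55. Scaling samples to the epithelial markers shifted the median of all genes to 0.23. The count of 13 then became 5, against 1.99% of all genes tested. The median of the 45 genes was -0.42, which is -0.65 relative to the median of all genes.

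The plot of the 45 genes by sample shows how far the samples of each group spread. Castrated replicate 1 held the lowest value of all 5 samples for 26 of the 45 genes and castrated replicate 3 for 4, whereas intact replicate 2 held the highest for 21 and the lowest for 0. Taken as log2(CPM + 0.5), the median level of the genes relative to the intact mean was -0.77, -0.61 and -0.50 for castrated replicates 1, 2 and 3. It was -0.08 and 0.08 for the intact samples. Thus the 3 castrated medians lay below both intact medians, with castrated replicate 3 closest to them.

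**Figure D1:**
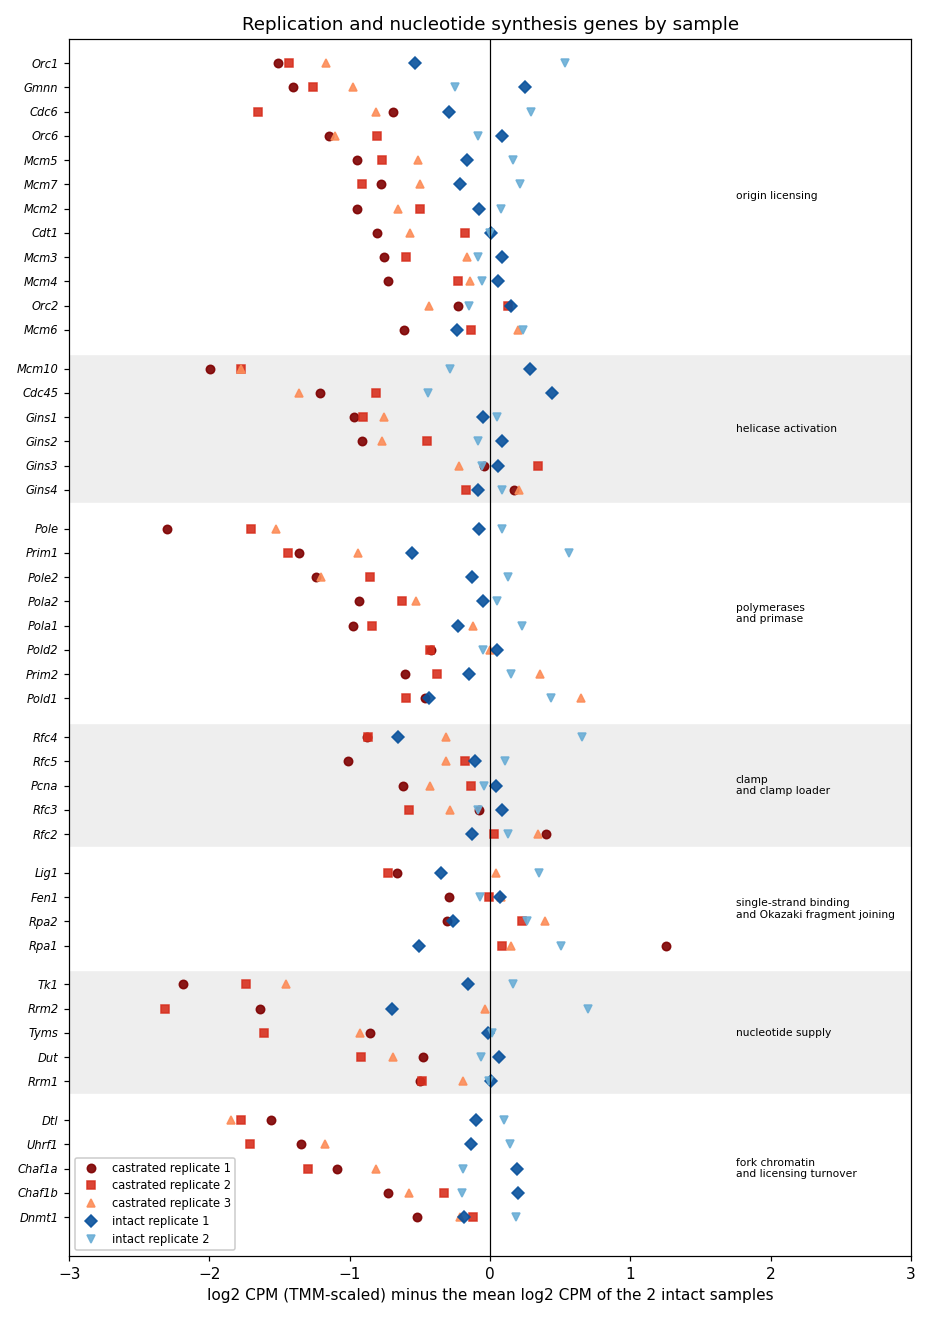
Level of each of the 45 genes in each sample, as log2 CPM minus the mean of the 2 intact samples for that gene, with genes grouped by role and ordered by log2 fold change, and 1 symbol per sample. In 28 genes all 3 castrated symbols lie left of both intact symbols, and the groups overlap in the other 17.

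Origin licensing genes were lower in direction in tumors of castrated mice, by amounts that ranged widely between the loader and the helicase. All 12 had a negative log2 fold change, with a median of -0.71 (Orc2 and Mcm6 turned positive when scaled to epithelial markers). In CPM, 10 (83.3%) were lower with no overlap between groups, against 16.1% of all genes tested. The unadjusted threshold was passed by 3 (25%), against 3.26% of all genes tested. These shares of all genes apply to the role groups that follow as well. Per gene length in TPM, Cdt1, Mcm3 and Mcm4 overlapped between groups. Orc6, the smallest subunit of the origin recognition complex, on chromosome 8 from 85299632 to 85308279 (mm10), had a CPM of 15.6, 19.8 and 16.1 in castrated replicates 1, 2 and 3 and of 36.7 and 32.6 in the intact samples. Every castrated value was well under both intact values, and the log2 fold change was -1.01 (SE 0.23, unadjusted p = 0.00643, adjusted p = 0.289, edgeR's quasi-likelihood test, Benjamini-Hochberg adjusted). Gmnn encodes geminin, the inhibitor that binds CDT1, and lies on chromosome 13 from 24751845 to 24761937. It measured 5.55, 6.11 and 7.45 CPM in the castrated samples against 17.4 and 12.3 CPM in the intact samples, again with no overlap. Its log2 fold change was -1.22 (SE 0.33, unadjusted p = 0.0122, adjusted p = 0.290, edgeR's quasi-likelihood test, Benjamini-Hochberg adjusted). Orc1, the subunit that is made and destroyed within each cell cycle, had a log2 fold change of -1.46 (SE 0.51) from a low level of 1.12, 1.18 and 1.41 CPM in castrated and 2.20 and 4.60 CPM in intact samples. Without intact replicate 2 it was -0.87, and without intact replicate 1 it was -1.87.

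Among the 6 helicase subunits, the difference was smaller and uneven. Mcm5 (log2 fold change -0.74, SE 0.27), Mcm7 (-0.73, SE 0.23) and Mcm2 (-0.69, SE 0.24) had an unadjusted p under 0.05, whereas Mcm3 (-0.49), Mcm4 (-0.35) and Mcm6 (-0.16) did not. Mcm6, on chromosome 1 from 128331575 to 128359705, had the largest p of the licensing genes, with 35.3, 49.2 and 62.2 CPM in castrated replicates 1, 2 and 3 against 45.9 and 63.7 CPM in the intact samples. Its groups overlapped because castrated replicates 2 and 3 exceeded intact replicate 1 (SE 0.31, unadjusted p = 0.614, adjusted p = 0.829, edgeR's quasi-likelihood test, Benjamini-Hochberg adjusted). Per gene length, in TPM (counts scaled to gene length and library), Mcm7 was the most abundant of the 6 and Mcm5 the least in all 5 samples. The Mcm7 level was 30.4, 27.9 and 36.3 TPM in castrated and 47.2 and 47.5 TPM in intact samples, and the Mcm5 level 8.59, 9.79 and 11.5 TPM against 15.5 and 14.7 TPM. The ratio of the highest to the lowest of the 6 stayed between 2.85 and 3.54 in every sample, while their mean was 17.2, 20.6 and 24.01 TPM in castrated and 28.8 and 25.0 TPM in intact samples. The remaining loading factors, Cdc6 (-1.02, SE 0.46) and Cdt1 (-0.49, SE 0.32), did not reach an unadjusted p under 0.05, although all castrated samples lay below both intact samples on the CPM scale. The ratio of Cdt1 to Gmnn in TPM was 0.548, 0.769 and 0.480 for castrated replicates 1, 2 and 3, against 0.305 and 0.430 for the intact samples, so that it was higher in every castrated sample. Orc2, a core subunit, differed little (-0.17, SE 0.25) and its groups overlapped.

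**Figure D2:**
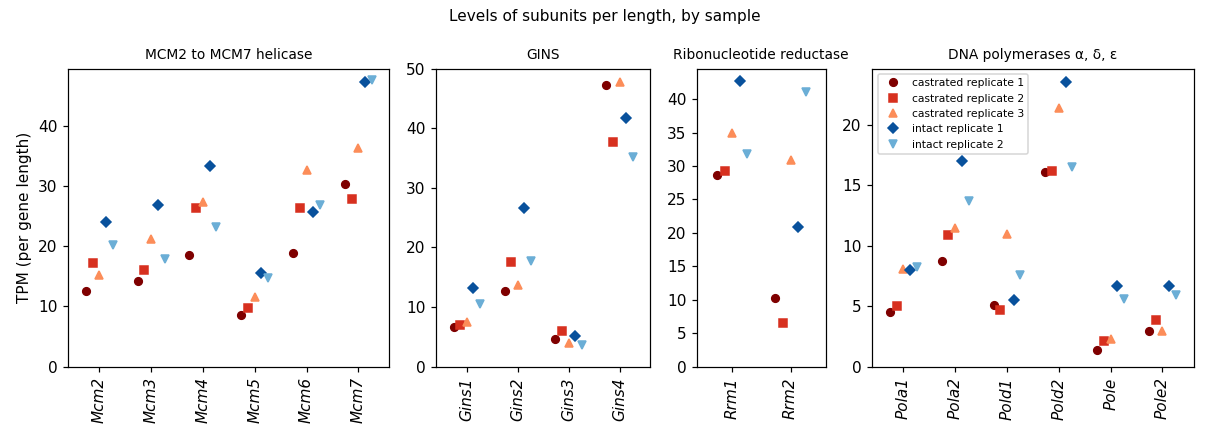
Levels per gene length in TPM (linear axes starting at 0) for subunits of the MCM helicase, GINS, ribonucleotide reductase and the replicative polymerases, with 1 symbol per sample. Mcm7 tops the helicase panel in all 5 samples, Pole is separated between the groups, and Rrm2 is spread from 6.49 to 41.0 TPM.

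Helicase activation was divided between factors that were lower and GINS subunits that were not. Of the 6 genes, 4 were lower with no overlap and 2 passed the unadjusted threshold (median -0.79). Mcm10, on chromosome 2 from 4990724 to 5012791, encodes a scaffold needed to start unwinding and had the most negative log2 fold change of the 45 genes. It measured 2.30, 2.68 and 2.68 CPM in castrated samples and 11.2 and 7.53 CPM in intact samples. Its level was 72.7% lower (log2 fold change -1.87, SE 0.37, unadjusted p = 0.00328, adjusted p = 0.289, edgeR's quasi-likelihood test, Benjamini-Hochberg adjusted). Cdc45, on chromosome 16 from 18780447 to 18811972 and coding for the helicase cofactor, measured 3.63, 4.77 and 3.26 CPM in castrated and 11.4 and 6.18 CPM in intact samples (log2 fold change -1.18, SE 0.43). The groups did not overlap, yet without intact replicate 1 the log2 fold change was -0.65. Within GINS, the 4-subunit ring that joins CDC45 to the helicase, Gins1 (-0.88, SE 0.34) and Gins2 (-0.70, SE 0.32) were lower in every castrated sample. Gins3, on chromosome 8 from 95633559 to 95645059, was not, with 4.68, 6.11 and 4.14 CPM in castrated and 5.02 and 4.65 CPM in intact samples (log2 fold change 0.04, SE 0.37, unadjusted p = 0.916). Gins4 likewise overlapped between groups (0.07, SE 0.24), and ran from 0.010 without intact replicate 1 to 0.19 without castrated replicate 2. By TPM it was the most abundant of the 4 in every sample, 6.28 to 11.997 times the least abundant one. The sign of Gins3 turned negative without castrated replicate 2 or intact replicate 2.

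Among the polymerase genes the differences were greatest for polymerase ε and the catalytic primase subunit. All 8 had a negative log2 fold change (median -0.65), though Prim2 and Pold1 turned positive when scaled to epithelial markers, 4 did not overlap and 3 passed the unadjusted threshold. Pole, on chromosome 5 from 110286319 to 110337453, encodes the catalytic subunit of the leading-strand polymerase. Its level was 4.12, 6.22 and 7.06 CPM in castrated and 19.2 and 21.5 CPM in intact samples. The highest castrated value was well below the lower intact value, and the log2 fold change was -1.81 (SE 0.34, unadjusted p = 0.00267, adjusted p = 0.289, edgeR's quasi-likelihood test, Benjamini-Hochberg adjusted). Its partner subunit Pole2 had a log2 fold change of -1.09 (SE 0.39), and the TPM ratio of Pole2 to Pole was 2.15, 1.86 and 1.28 in castrated and 0.997 and 1.06 in intact samples, higher in every castrated sample. Prim1, the catalytic primase subunit that makes RNA primers, lies on chromosome 10 from 128015215 to 128030030. It measured 6.84, 6.49 and 9.16 CPM in castrated and 11.9 and 25.9 CPM in intact samples, with no overlap but a wide gap between the intact samples (log2 fold change -1.33, SE 0.42, with -0.71 without intact replicate 2 and -1.77 without intact replicate 1). Prim2, the other primase subunit, had a log2 fold change of -0.16 (SE 0.40), and the polymerase α subunits Pola1 and Pola2 had -0.61 (SE 0.37) and -0.69 (SE 0.26). Pold1, the catalytic subunit of polymerase δ, on chromosome 7 from 44532744 to 44548815, measured 7.43, 6.76 and 16.1 CPM in castrated and 7.57 and 13.9 CPM in intact samples. Castrated replicate 3 held the highest of the 5 values (log2 fold change -0.09, SE 0.53, unadjusted p = 0.876), and the sign turned positive when castrated replicate 1, castrated replicate 2 or intact replicate 2 was left out. Pold2 had a log2 fold change of -0.27 (SE 0.28).

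The clamp, its loader and the genes that protect and join lagging-strand fragments did not separate the groups clearly. Of the 5 clamp and clamp loader genes, 4 were lower (median -0.38) and 0 passed the unadjusted threshold. The 2 without overlap in CPM, Pcna and Rfc5, overlapped between groups per gene length in TPM. Pcna, the sliding clamp, on chromosome 2 from 132249286 to 132253180, was lower in CPM in every castrated sample, at 65.3, 91.3 and 74.6 CPM against 103 and 97.3 CPM. Castrated replicate 2 came close to intact replicate 2, and the log2 fold change was -0.38 (SE 0.21, unadjusted p = 0.123, adjusted p = 0.436, edgeR's quasi-likelihood test, Benjamini-Hochberg adjusted). In TPM, Pcna measured 122, 172 and 138 in castrated and 204 and 144 in intact samples, so castrated replicate 2 exceeded intact replicate 2. Rfc4, a clamp loader subunit on chromosome 16 from 23113948 to 23127730, measured 6.59, 6.65 and 9.74 CPM in castrated and 7.71 and 19.1 CPM in intact samples, so the difference of -0.81 (SE 0.48) came from intact replicate 2, and it was -0.05 without that sample and -1.30 without intact replicate 1. Rfc2, another loader subunit, on chromosome 5 from 134582690 to 134598328, was the one gene of this group with a positive log2 fold change (0.26, SE 0.23, unadjusted p = 0.307). Its values, 39.4, 30.4 and 37.8 CPM in castrated and 27.2 and 32.7 CPM in intact samples, overlapped, whereas per gene length in TPM every castrated sample lay above both intact samples. Rfc3 and Rfc5 had log2 fold changes of -0.30 (SE 0.26) and -0.46 (SE 0.34).

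The 4 genes for single-strand binding and Okazaki fragment joining had a median of 0.02, and the groups overlapped in each of them. Rpa1, the large subunit of the single-strand binding protein, on chromosome 11 from 75300259 to 75348383, measured 249.6 CPM in castrated replicate 1 but 111 and 116 CPM in castrated replicates 2 and 3, and 73.7 and 149 CPM in intact samples. Its log2 fold change of 0.51 (SE 0.50, unadjusted p = 0.348) was 0.03 without castrated replicate 1 and 1.07 without intact replicate 2. Lig1, the ligase that seals Okazaki fragments, on chromosome 7 from 13277313 to 13311427, measured 25.8, 24.6 and 42.0 CPM in castrated and 32.0 and 51.9 CPM in intact samples (log2 fold change -0.45, SE 0.36, with -0.10 without intact replicate 2 and -0.73 without intact replicate 1). Fen1, the flap endonuclease, on chromosome 19 from 10199132 to 10204393, was nearly level, with 13.5, 16.5 and 17.5 CPM against 17.4 and 15.8 CPM (log2 fold change -0.07, SE 0.26, unadjusted p = 0.809). Rpa2 had a log2 fold change of 0.11 (SE 0.36).

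**Figure D3:**
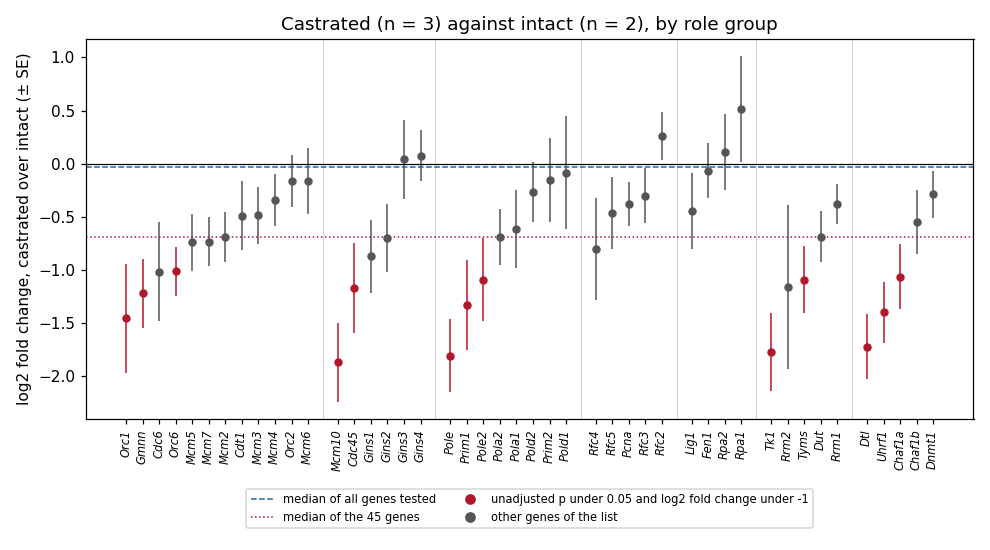
Log2 fold change of castrated over intact for each of the 45 genes, with bars of 1 standard error from edgeR's quasi-likelihood test, separated by vertical lines into the 7 role groups. The 13 genes past the unadjusted threshold are red and none lies among the clamp, clamp loader and Okazaki fragment genes, and the dashed and dotted lines mark the medians of all genes (-0.03) and of the 45 genes (-0.69).

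Nucleotide supply genes were lower in direction in all 5 cases, with a median of -1.09, and 2 passed the unadjusted threshold. Tk1, the cytosolic thymidine kinase of the salvage pathway, on chromosome 11 from 117815519 to 117826014, measured 2.90, 3.97 and 4.82 CPM in castrated and 11.8 and 14.8 CPM in intact samples. No castrated value came near an intact one, and the log2 fold change was -1.77 (SE 0.37, unadjusted p = 0.00403, adjusted p = 0.289, edgeR's quasi-likelihood test, Benjamini-Hochberg adjusted). Tyms, which makes thymidylate from scratch and lies on chromosome 5 from 30058200 to 30073625, measured 13.9, 8.21 and 13.2 CPM in castrated and 24.8 and 25.4 CPM in intact samples. The groups were again apart (log2 fold change -1.09, SE 0.32, unadjusted p = 0.0167, adjusted p = 0.294, edgeR's quasi-likelihood test, Benjamini-Hochberg adjusted). Dut, which removes dUTP, was lower by a smaller amount (-0.69, SE 0.24). The subunits of ribonucleotide reductase differed in how tightly they held within a group. Rrm1, the large subunit, measured 48.6, 49.1 and 60.0 CPM in castrated and 68.9 and 68.3 CPM in intact samples (log2 fold change -0.38, SE 0.19). In TPM its groups overlapped, with 35.0 in castrated replicate 3 and 31.8 in intact replicate 2. Rrm2, the small subunit whose level follows S phase, on chromosome 12 from 24708254 to 24714146, measured 9.49, 5.95 and 28.9 CPM in castrated and 18.3 and 48.1 CPM in intact samples. Castrated replicate 3 exceeded intact replicate 1, the log2 fold change was -1.17 with an SE of 0.77 (unadjusted p = 0.189, adjusted p = 0.513, edgeR's quasi-likelihood test, Benjamini-Hochberg adjusted), and it was -2.09 without castrated replicate 3 and -0.35 without intact replicate 2. The TPM ratio of Rrm2 to Rrm1 was accordingly 0.358, 0.222 and 0.883 in castrated and 0.487 and 1.29 in intact samples, with overlap.

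Genes that act on chromatin at the fork and on licensing turnover included the smallest p of the whole group. All 5 were lower in direction (median -1.06), 4 did not overlap in CPM (of these Chaf1b overlapped in TPM) and 3 passed the unadjusted threshold. Dtl, the adaptor through which a ubiquitin ligase destroys CDT1 on PCNA-bound DNA, lies on chromosome 1 from 191537356 to 191575544. Its level was 4.85, 4.18 and 3.995 CPM in castrated and 13.4 and 15.3 CPM in intact samples, a tight separation of 69.7% (log2 fold change -1.72, SE 0.30, unadjusted p = 0.00194, adjusted p = 0.289, edgeR's quasi-likelihood test, Benjamini-Hochberg adjusted). Uhrf1, which brings the maintenance methyltransferase to newly copied DNA, on chromosome 17 from 56303337 to 56323486, measured 9.91, 7.67 and 11.2 CPM in castrated and 22.9 and 27.7 CPM in intact samples. The log2 fold change was -1.40 (SE 0.29, unadjusted p = 0.00396, adjusted p = 0.289, edgeR's quasi-likelihood test, Benjamini-Hochberg adjusted). Dnmt1, that methyltransferase itself, on chromosome 9 from 20907206 to 20959888, measured 53.2, 70.0 and 65.9 CPM in castrated and 67.0 and 86.9 CPM in intact samples, with overlap (log2 fold change -0.29, SE 0.22, unadjusted p = 0.248, with -0.13 without intact replicate 2 and -0.44 without intact replicate 1). The large and middle subunits of the histone chaperone CAF-1, Chaf1a and Chaf1b, had log2 fold changes of -1.06 (SE 0.31) and -0.55 (SE 0.31). The TPM ratio of Chaf1a to Chaf1b was 0.550, 0.362 and 0.601 in castrated and 0.702 and 0.711 in intact samples.

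Across the 45 genes the difference went with abundance, taken as a mean over all 5 samples. Because this mean includes the castrated samples, a lower level there lowers both quantities, and the part of abundance itself was not tested. The 13 genes past the unadjusted threshold had a median of 8.13 TPM (mean over the 5 samples) and the other 32 genes 18.97 TPM, and across the genes, which are not independent and share libraries, the rank correlation between mean TPM and log2 fold change was 0.541 (n = 45). No count of any of these genes in any sample was under 22.

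Other genes of replication and nucleotide metabolism, listed apart from the 45, had smaller median differences. Of 39 further replication factors tested, 32 had a negative log2 fold change, with a median of -0.40. In 20 (51.3%) every castrated sample lay below both intact samples and in 1 above both, against 16.1% and 17% of all genes tested. The unadjusted threshold was passed downward by 5 (12.8%) and upward by 0, against 3.26% and 7.66% of all genes tested. Without intact replicate 2, 27 were negative and the median was -0.26. With any one castrated replicate left out, 2 passed, against 1.72% to 3.72% of all genes tested. Exo1, a nuclease of repair and fork processing, had the smallest p, with 2.30, 2.25 and 1.46 CPM in castrated and 5.51 and 21.4 CPM in intact samples. The intact samples differed widely from each other and both exceeded every castrated sample (log2 fold change -2.74, SE 0.65, unadjusted p = 0.00716, and -1.50 without intact replicate 2). Ticrr, which helps load CDC45, measured 1.88, 1.07 and 1.66 CPM in castrated and 5.29 and 5.30 CPM in intact samples (-1.77, SE 0.43), and Atad5, which unloads PCNA, had a log2 fold change of -0.84 (SE 0.28). At the other end Rfc1, the large clamp loader subunit, was level at 61.7, 61.8 and 72.5 CPM against 63.6 and 67.3 CPM. The subunits outside the 45 filled in the same complexes, and were picked out after their values had been seen. Orc4 had a log2 fold change of -0.64 (unadjusted p = 0.0366) and Orc3 one of 0.57 (unadjusted p = 0.0630), and the accessory subunits Pold3, Pold4, Pole3 and Pole4 had 0.17, 0.30, -0.15 and 0.16. Of these, Pole3 was 0.42 without intact replicate 2 and -0.56 without intact replicate 1, Pole4 was -0.13 without intact replicate 2 and -0.26 without castrated replicate 1, and Pold3 was -0.03 without intact replicate 1. Pold4 was 0.56 without intact replicate 2 and 0.079 without intact replicate 1, and Orc3 was 0.35 without intact replicate 1. Rpa3, of the same complex as Rpa1 and Rpa2, was -1.91 without intact replicate 1 and -0.37 without intact replicate 2. It was between -1.46 and -1.22 without each castrated replicate. Orc5 was -0.34 without intact replicate 1 and -0.37 without intact replicate 2.

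Of 31 further genes of nucleotide metabolism, 22 had a negative log2 fold change (median -0.26). In 8 (25.8%) every castrated sample lay below both intact samples and in 2 above both, against 16.1% and 17% of all genes tested. The unadjusted threshold was passed by 0 in either direction, against 3.26% downward and 7.66% upward of all genes tested. Without intact replicate 2, 20 were negative and the median was -0.16. Samhd1, which degrades deoxynucleotides, had a log2 fold change of 1.20 there and of 0.38 without intact replicate 1. Without castrated replicate 1 or castrated replicate 3, 1 passed downward, against 3.72% and 2.0% of all genes tested. Dtymk, which phosphorylates the product of Tk1 and Tyms, had the smallest p, with 28.5, 21.2 and 26.6 CPM in castrated and 35.9 and 61.3 CPM in intact samples (log2 fold change -0.93, SE 0.30, unadjusted p = 0.0253, and -0.54 without intact replicate 2). Shmt1, of folate metabolism, had a log2 fold change of -0.89 (SE 0.35) and Hprt, of purine salvage, one of -0.37 (SE 0.18). Dguok, the mitochondrial deoxyguanosine kinase, had the largest p (log2 fold change 0.01, SE 0.45, with 0.73 without intact replicate 2 and -0.47 without intact replicate 1). For the mitochondrial thymidine kinase Tk2, chosen after its values were seen, the levels were 38.7, 44.1 and 41.5 CPM in castrated and 28.5 and 33.8 CPM in intact samples (log2 fold change 0.41, unadjusted p = 0.0963), so that it was higher in every castrated sample while Tk1 was lower. The difference between the kinases was not tested.

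Mitotic genes had a larger median difference than the replication genes. All 24 tested lay below both intact samples in every castrated sample, against 16.1% of all genes tested, and the median was -1.65. The unadjusted threshold was passed by 23, against 3.26% of all genes tested. Without intact replicate 2, all 24 were negative and the median was -1.45. Without castrated replicate 2, 16 passed the threshold, against 1.72% of all genes tested. Mad2l1, of the spindle checkpoint, measured 28.4, 22.7 and 22.8 CPM in castrated and 70.1 and 72.3 CPM in intact samples (log2 fold change -1.53, SE 0.20, unadjusted p = 0.000471, adjusted p = 0.289, edgeR's quasi-likelihood test, Benjamini-Hochberg adjusted). Cdk1, the mitotic kinase, had a log2 fold change of -1.62 (SE 0.29) and Cenpf, of the kinetochore, one of -2.49 (SE 0.44). The exception to the threshold was Bub1b, a checkpoint kinase (-1.18, SE 0.51, unadjusted p = 0.0645). Castrated replicate 1 had the lowest median of both lists and castrated replicate 3 the highest among castrated samples, with mitotic medians of -2.04, -1.60 and -1.21 in castrated replicates 1, 2 and 3. Whether the medians of the lists differ was not tested.

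**Figure D4:**
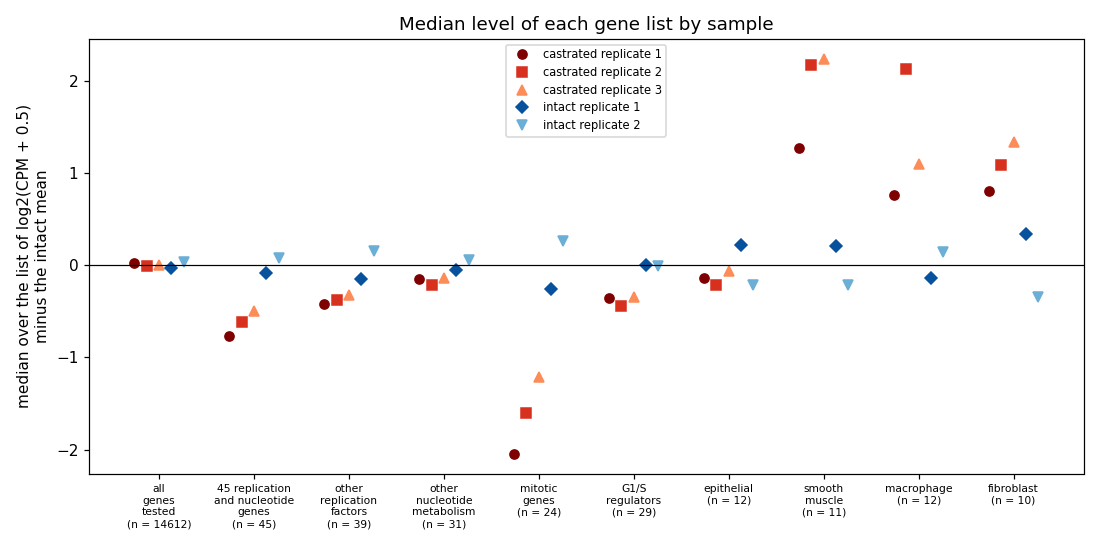
Median over each gene list of log2(CPM + 0.5) minus the intact mean, for each of the 5 samples, with the number of genes tested under each list. The 45 genes sit at -0.77, -0.61 and -0.50 in castrated samples, between the other replication factors and the mitotic genes, while smooth muscle, macrophage and fibroblast markers lie higher in the castrated samples.

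Markers of several other cell types were higher in the castrated tumors. Over all genes tested, 7.66% passed the unadjusted threshold upward and 3.26% downward. Macrophage markers were higher in direction for 12 of 12 genes, 9 of them past the unadjusted threshold, with summed CPM of 2758, 8137 and 3304 in castrated and 1271 and 1786 in intact samples and Lyz2 as the most abundant in all 5 samples. Smooth muscle markers were higher for 11 of 11, 9 past the threshold, at 901, 1156 and 1212 against 634 and 357, and fibroblast markers for 9 of 10, 5 past it, at 4944, 6027 and 8142 against 4467 and 2690. The highest mean over the 5 samples was that of Cald1 among smooth muscle markers and of Dcn among fibroblast markers, though Col3a1 exceeded Dcn in castrated replicate 1 and both intact samples. Adipocyte markers summed to 41.1, 673 and 629 in castrated and 27.6 and 53.3 in intact samples (Fabp4), so that 2 castrated samples carried nearly all of them. T and B cell markers summed to 21.1, 102 and 108 against 3.90 and 36.0, endothelial markers to 703, 333 and 406 against 519 and 199, and neuroendocrine markers to 47.5, 68.5 and 74.0 against 56.8 and 15.0. Over the 5 samples the highest mean was that of Cd4 among T and B cell markers and of Cdh5 among endothelial markers, although other genes led in single samples. Ncam1, the most abundant neuroendocrine marker in all 5 samples, had a negative log2 fold change, whereas 7 of the 8 neuroendocrine markers tested were higher, 5 past the threshold, with a median log2 fold change of 3.14. Of the markers tested, 10 of 11 were higher for adipocytes (8 past the threshold), 8 of 9 for T and B cells (3) and 8 of 9 for endothelium (1). Among the epithelial markers 10 of 12 were lower, 0 past the threshold, with a median of -0.26. Expressed as a percentage of the epithelial sum, the 45 genes came to 20.8%, 21.2% and 19.5% in castrated and 17.4% and 28.4% in intact samples, which overlapped. The part of cell composition in the differences was not tested.

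A promoter sequence feature, which the choice of the genes did not use, was looked for. RefSeq promoter windows of 300 bases, from 250 bases before to 50 bases after the gene start (build GRCm38.p6), were matched for 37 of the 45 genes. E2F-type words, namely TTTCCCGC, TTTGGCGC, TTTCGCGC or TTTGCCGC on either strand, were found in 13 of these 37 (35.1%), against 3.9% of the windows of all genes tested, 2.3% of all windows and 5% of those of the mitotic genes. CCAAT on either strand was found in 64.9% of the 37, 38.2% of tested genes, 37.4% of all windows and 75% of mitotic genes. Genes with an E2F-type word had a median log2 fold change of -0.61 (n = 13) and those without one -0.69 (n = 24), and the word was held by 3 of 11 genes past the unadjusted threshold and 10 of 26 others. Medians with and without the word were thus close. A word is a match of letters and was not tested as a binding site. The 3 windows below show this range, from the strand of the gene, with E2F-type words in capitals. Dtl (chr1:191575495-191575794, minus strand, log2 fold change -1.72) holds 1 word, which begins at position -8 counted from the start site as 0. Mcm6 (chr1:128359656-128359955, minus strand, log2 fold change -0.16) holds 3, at -110, -106 and -47, of which the first and second overlap. Mcm10 (chr2:5012742-5013041, minus strand, log2 fold change -1.87) holds 0. Its window ends in TTTGGCG, all but the last letter of TTTGGCGC, so a word crossing the window edge would have been missed.
Dtl: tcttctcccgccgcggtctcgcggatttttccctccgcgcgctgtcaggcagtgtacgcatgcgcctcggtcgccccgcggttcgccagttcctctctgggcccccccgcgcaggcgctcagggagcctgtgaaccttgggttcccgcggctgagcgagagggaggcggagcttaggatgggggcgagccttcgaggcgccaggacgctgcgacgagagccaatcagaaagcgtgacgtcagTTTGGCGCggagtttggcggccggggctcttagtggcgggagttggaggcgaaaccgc
Mcm6: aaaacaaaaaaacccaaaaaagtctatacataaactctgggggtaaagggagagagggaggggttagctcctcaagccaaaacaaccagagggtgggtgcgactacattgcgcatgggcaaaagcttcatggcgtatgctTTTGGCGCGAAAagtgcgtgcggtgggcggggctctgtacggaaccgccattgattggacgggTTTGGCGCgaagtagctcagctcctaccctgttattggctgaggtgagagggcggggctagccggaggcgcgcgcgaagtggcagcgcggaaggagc
Mcm10: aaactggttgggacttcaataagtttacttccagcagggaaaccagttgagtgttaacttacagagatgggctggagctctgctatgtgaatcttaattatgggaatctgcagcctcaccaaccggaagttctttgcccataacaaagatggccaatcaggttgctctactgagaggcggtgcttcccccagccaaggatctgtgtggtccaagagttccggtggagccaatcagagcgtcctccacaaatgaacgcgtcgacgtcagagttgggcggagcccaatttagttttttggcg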

How the data were processed

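RNA-seq libraries of prostate tumors were grouped by their labels (3 castrated, 2 intact TripleTg mice). Per the study's methods and the submitters' processing notes, the authors depleted ribosomal RNA, trimmed paired-end reads (Trimmomatic 0.39), aligned them to mm10 (STAR 2.7.9) and counted reads per gene (HTSeq 2.0.2). The authors deposited raw counts, with no normalization. The strand setting of counting was not given in the sources used here, so counts of overlapping genes are uncertain. Of the 45 genes, 21 overlap a GENCODE gene, 16 of them one on the other strand (among them Rfc4, Lig1, Fen1, Tk1 and Gins2), and Pcna and Tyms have processed copies.

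Counts were scaled by TMM (factors 0.944 to 1.036) and tested with edgeR 4.0.16 (quasi-likelihood F-test, R 4.3.3) on genes with CPM above 1 in at least 2 samples, as in the study's methods, which name TPM as input. The standard error is the absolute log2 fold change over the square root of F. The common dispersion was 0.238, so that the spread between mice, more than depth, limited precision. TPM used the deposited gene length. Alternatives used limma 3.58.1 and DESeq2 1.42.0, other scalings and filters, TPM, a replicate block, omission of the 20 genes with the most counts and of each replicate, and, chosen after seeing the data, the older quasi-likelihood fit of edgeR and omission of each replicate for the other lists. The procedure was tested on simulated data.

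The 45 genes, their role groups and the other lists were chosen with earlier results of these data known. Values by sample are given, per role group, for the 2 genes with the smallest p and the one with the largest, for Mcm5, Mcm7 and Rrm1 besides, and from each other list genes were named from the 3 smallest p and the largest. Orc1, and where stated other genes, were added after their values had been seen. Promoter sequences are from RefSeq.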

Additional observations from a re-analysis of the deposited data

How the results depend on the processing

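The 45 genes were refitted under 17 other settings. The count of genes called over the whole table, 0, became 989 with DESeq2 (9 of the 45) and 369 with the likelihood ratio test (4 of the 45), and was between 0 and 1 when each replicate was left out, the 1 without intact replicate 1. The count of 13 of the 45 past the unadjusted threshold became 7 on log2 TPM tested with limma, against 256 of all 14612 genes. The median there was -0.52, with all genes at 0.12. The count became 5 when scaled to epithelial markers, against 1.99% of all genes tested. Without each castrated replicate it was between 7 and 10, against shares of all genes tested between 1.72% and 3.72%. Leaving out an intact replicate leaves 1 intact sample, so no count past this threshold is given for those fits. The median of the 45 was -0.65 without intact replicate 1 and -0.55 without intact replicate 2. The medians of all genes tested were 0.04 and 0.01 in those fits. Scaling to epithelial markers left 35 of the 45 lower, 15 below both intact samples and a median of -0.42. TPM left 21 below both. Without each replicate the median ran from -0.70 to -0.55. Same-numbered samples were different animals, and the labels state no pairing. Their deviations from the group means had correlations of 0.165 and -0.0371. With 2 intact samples the intact deviations mirror each other, so these correlations cannot decide whether the samples are paired. With the replicate number as a block, 6 of the 45 passed the unadjusted threshold (median -0.70), against 1.55% of all genes tested. In 37 of the 45 the direction never reversed. Scaled to epithelial markers, Orc2 (0.13), Mcm6 (0.040), Prim2 (0.049), Pold1 (0.059) and Fen1 (0.20) reversed. On log2 TPM, Pold1 (0.0048) and Fen1 (0.054) did, and with the block, Gins4 (-0.00081) and Rpa2 (-0.041) did. Leaving out each replicate gave ranges of -0.18 to 0.036 for Fen1, -0.13 to 0.16 for Gins3, -0.37 to 0.048 for Mcm6, -0.35 to 0.0083 for Orc2, -0.59 to 0.37 for Pold1, -0.49 to 0.030 for Prim2 and -0.11 to 0.35 for Rpa2. Chaf1b moved from -0.55 to -0.31 and Rfc2 from 0.26 to 0.15 when intact replicate 1 was left out. Without castrated replicate 1 Mcm4 was at -0.19 and Rfc5 at -0.25, without castrated replicate 2 Rfc3 was at -0.17, and without castrated replicate 3 Pold2 was at -0.42. The cause of these changes was not tested. The comparison rests on 3 mice against 2, and how many genes were called also depended on the test used.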

Other observations

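Regulators of the G1/S transition, which control when the replication genes are transcribed, were mixed. Of 29 tested, 21 had a negative log2 fold change (median -0.44). In 12 (41.4%) every castrated sample lay below both intact samples and in 2 above both, against 16.1% and 17% of all genes tested. The unadjusted threshold was passed downward by 3 (10.3%) and upward by 1, against 3.26% and 7.66% of all genes tested. Without intact replicate 2, 21 were negative with a median of -0.38, and without intact replicate 1, 18 were negative with a median of -0.26. Without castrated replicate 2, 0 passed in either direction, where 1.72% of all genes tested passed downward. The atypical E2F repressors E2f7 and E2f8, which are themselves switched on in S phase, were among the 3. E2f7 measured 1.74, 1.29 and 1.36 CPM in castrated and 3.72 and 4.32 CPM in intact samples (log2 fold change -1.45, SE 0.42), and E2f8 measured 2.13, 5.20 and 6.09 CPM against 25.9 and 10.5 CPM (-2.02, SE 0.61, and -1.21 without intact replicate 1). The third was Ccne2, a cyclin that starts S phase, at 3.63, 2.63 and 2.58 CPM against 5.38 and 15.1 CPM (-1.79, SE 0.53, and -0.91 without intact replicate 2). Leaving out 1 replicate, E2f7 lost the unadjusted threshold in 2 of 5 cases, E2f8 in 2 and Ccne2 in 3. In these 3 genes every castrated sample lay below both intact samples. The gene past the threshold upward was Cdkn2a, which encodes cell cycle inhibitors, at 20.1, 15.6 and 5.80 CPM in castrated and 4.21 and 4.46 CPM in intact samples (log2 fold change 1.67, unadjusted p = 0.0354 by edgeR's quasi-likelihood test fitted over all genes). It was named after its values were seen, and it passed the threshold when castrated replicate 3 was left out but not when any other replicate was. Cdkn1c, another inhibitor, had the largest p of the list, with 35.7, 58.1 and 56.8 CPM in castrated and 75.9 and 7.07 CPM in intact samples, and its log2 fold change of 0.27 was -0.64 without intact replicate 2 and 2.85 without intact replicate 1.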
